A study of Rattus norvegicus with 10 samples.

Results

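Chemokines are small secreted proteins that steer leukocytes along gradients, and their receptors are G protein-coupled. The genes described here are the chemokine ligands and receptors on a rat array, chosen as the probe sets whose single gene symbol in the array annotation begins with Ccl, Cxcl, Cx3c, Xcl, Ccr, Cxcr or Ackr and a number, or is Ccrl2 or Xcr1. The rule found 59 of the 31042 probe sets tested, for 46 of 14217 named genes: 38 probe sets for 29 ligand genes and 21 probe sets for 17 receptor genes. The symbols come from the array annotation, which gives 1 symbol to 20826 probe sets, several to 436 (0 of them with a chemokine) and none to 9780.

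The samples were resident peritoneal macrophages of Wistar rats (Hsdcpb:WU, 200 to 224 g, age not given), cultured for 3 days without myelin (control macrophages, n = 5) or with 100 µg/ml of myelin isolated from rat brain (myelin-phagocytosing or mye-macrophages, n = 5). Myelin was washed off, and all samples were stimulated for 9 hours with IFNγ and IL-1β (100 ng/ml), so that every level below is that of stimulated cells and the response to the cytokines themselves was not measured. The cells were the adherent part of the lavage, described as more than 95% macrophages, and their RNA was hybridized to 1 Affymetrix rat genome array per sample. The labels do not say whether samples came from separate animals, so the spread behind the p-values may be technical. In the fits paired by replicate number, described below, it is the spread of the differences within pairs. The comparison asks how myelin ingestion bears on the chemokine genes of macrophages in a pro-inflammatory setting.

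In macrophages many chemokine genes are switched on by NF-κB downstream of the IL-1 receptor and by interferon regulatory factors downstream of the IFNγ receptor. CXC ligands with a Glu-Leu-Arg motif before the first cysteine (ELR ligands) draw neutrophils through CXCR2, CXCR3 ligands draw activated T cells and NK cells, the inflammatory CC ligands draw monocytes and T cells through receptors such as CCR1 and CCR2, and CCL17, CCL22 and CCL24 act on CCR4 or CCR3 of T helper cells and eosinophils. Atypical receptors bind chemokines without the usual G protein signal and mostly remove them.

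The deposited values are log2 signals after robust multi-array averaging (RMA), between -0.04 and 13.09, with array medians of 2.30 to 2.35. Such medians are low for RMA, for a reason that the sources used here do not give. A gene at or under the median of all values (2.32) is called dim below, and levels are not otherwise compared between genes. By their means over the 10 samples, all 10 macrophage markers lay above that median, Gata6 (2.33) only just, and Mrc1 (2.64) with a control mean of 2.29. So did 4 of 9 T cell, 2 of 6 NK cell, 3 of 5 dendritic cell, 3 of 10 mast cell and eosinophil and 0 of 4 neutrophil markers. Control and mye samples of the same replicate number deviated together from their group means (correlations of 0.40 to 0.79, against -0.65 to 0.28 across numbers), so the groups were compared with limma with the replicate number as a block. Benjamini-Hochberg adjustment ran over the 15521 probe sets that varied more (the upper 50% by interquartile range), and a probe set was called at an adjusted p under 0.05. The myelin gene Mobp was higher in mye-macrophages in 5 of 5 pairs (log2 difference 3.60, SE 0.31, limma adjusted p = 0.0019), 1 of 2 higher calls among 6 myelin and oligodendrocyte genes. The other was Bcas1 (1.76, SE 0.18, limma adjusted p = 0.0033). The remaining 4 were not called, among them Cnp (0.08). Mbp, by its brightest probe set, differed by -0.20 (SE 0.11), lower in 4 of 5 pairs and outside the variance filter. In control macrophages Mobp read 1.22 to 1.34 in replicates 2 to 5 but 3.44 in replicate 1, nearer the mye-macrophages (3.84 to 6.51). Bcas1 read 2.25 in control replicate 1, against 1.37 to 1.78 in the other control samples and 2.53 to 4.38 in mye-macrophages. Results without replicate 1 are given with the calls.

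Among the chemokine genes, myelin was followed by lower signals of a small set of ligands and by no called change of a receptor. Cxcl1, Cxcl2, Ccl4 and Ccl22 were lower in mye-macrophages in 5 of 5 pairs, by 1.34- to 1.89-fold. Of the 40 chemokine probe sets inside the variance filter, 5 were called lower (4 genes, Ccl22 with both of its probe sets) and 0 higher, where 1.90% of all 15521 probe sets were called lower and 0.792% higher (2.69% in either direction). All 5 were among the 26 ligand probe sets and none among the 14 receptor probe sets in the filter, where 0 of 14 is near the share over all. The other 19 chemokine probe sets lay outside it and could not be called. At an unadjusted p under 0.05 the blocked limma fit held 8 of the 59 lower and 4 higher, against 6.62% and 5.51% of all probe sets. The median log2 difference was 0.0012 over the 59 probe sets, -0.0453 over ligands and 0.0174 over receptors, beside 0.0044 over all 31042. In a bulk sample fewer cells of a type and less RNA per cell cannot be told apart.

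These calls rest on the pairing. Without the block, 0 chemokine probe sets were called in either direction by limma (0.00% of all probe sets). At an unadjusted p under 0.05, 1 was lower and 0 were higher (2.35% and 2.11% of all). The unpaired test named in the methods, here with Benjamini-Hochberg adjustment added, also called 0. The methods name no adjustment, so this 0 is not the study's own count. For none of the 59 probe sets did the values of both groups stand apart without overlap, against 0.734% of all. Leaving out pair 1, 4 or 5 left 0 of the chemokine calls, leaving out pair 2 left Ccl22 alone (its dimmer probe set), and leaving out pair 3 left Cxcl1, Cxcl2, Ccl4 and the dimmer Ccl22 probe set. Without the variance filter, Ccl4 and the dimmer Ccl22 probe set were the 2 lower calls, against 0.287% of all probe sets.

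**Figure D1:**
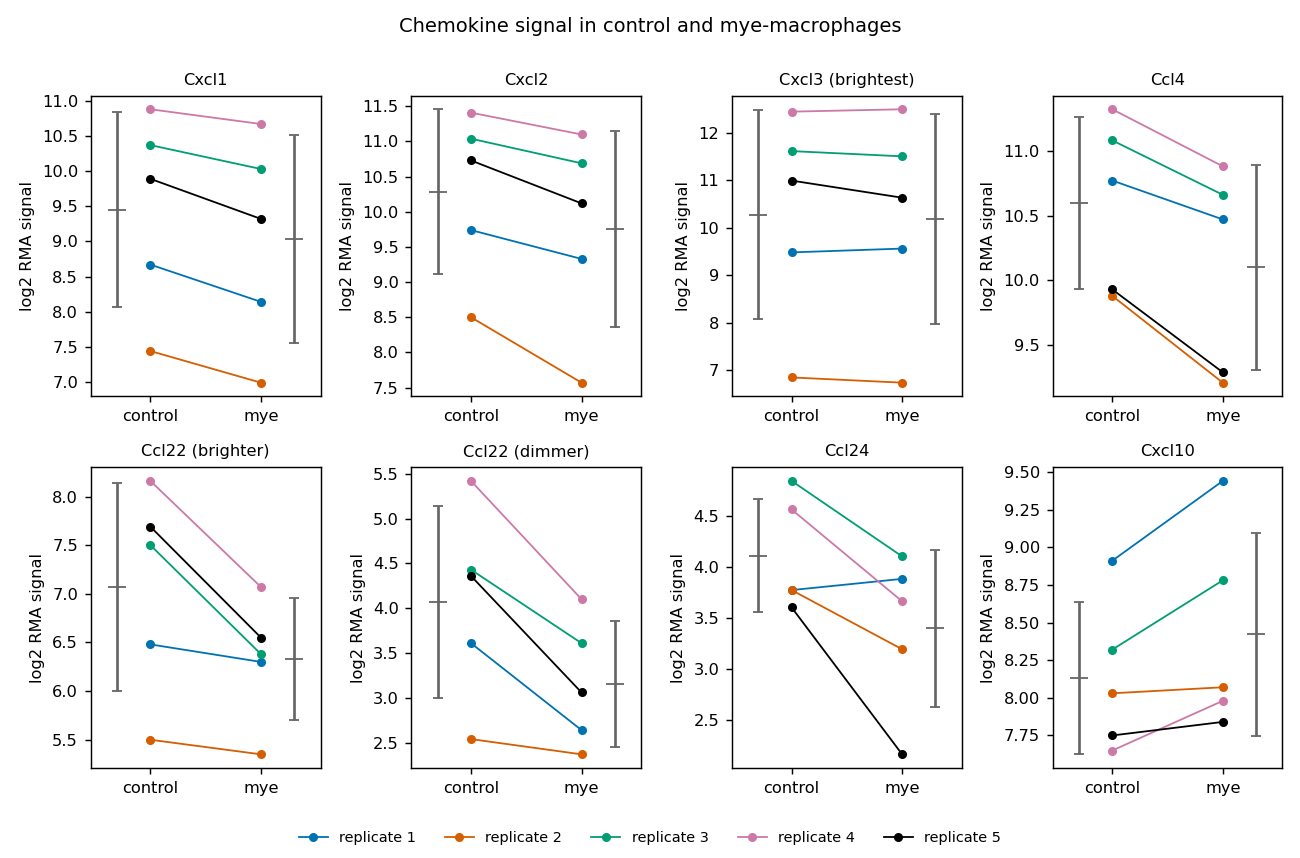
Log2 RMA signal of 8 chemokine probe sets (vertical axes, each with its own range not starting at 0) in control and mye-macrophages, with 1 colour and line per replicate number and grey bars for the group mean ± SD (n = 5). All 5 lines fall for Cxcl1, Cxcl2, Ccl4 and both Ccl22 probe sets and rise for Cxcl10, while the means of the pairs range over 5.67 log2 units for Cxcl3.

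The sequences upstream of 4 genes are printed because 3 of them (Cxcl1, Cxcl2, Ccl22) were called lower, and Cxcl10 is the interferon-inducible ligand that was higher in every pair. They are the 250 bases before the annotated start in RefSeq (GRCr8), written in the direction of the gene, 5′ to 3′. Capitals mark matches to the NF-κB consensus on either strand. Cxcl1 (chr14:17479322-17479571, minus strand) has overlapping matches on the 2 strands 84 to 74 bases before the start. Cxcl2 (chr14:17467256-17467505, minus strand) has them 74 to 64 bases before the start, 3 in all. Cxcl10 (chr14:15988816-15989065, plus strand) has 1 match, 187 to 178 bases before the start. Ccl22 (chr19:10270360-10270609, minus strand) has 0 matches in this window.
Cxcl1: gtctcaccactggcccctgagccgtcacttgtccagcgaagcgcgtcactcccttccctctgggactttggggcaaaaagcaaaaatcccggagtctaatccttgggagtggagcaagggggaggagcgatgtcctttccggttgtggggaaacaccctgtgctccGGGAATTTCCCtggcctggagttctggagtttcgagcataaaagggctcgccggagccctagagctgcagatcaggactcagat
Cxcl2: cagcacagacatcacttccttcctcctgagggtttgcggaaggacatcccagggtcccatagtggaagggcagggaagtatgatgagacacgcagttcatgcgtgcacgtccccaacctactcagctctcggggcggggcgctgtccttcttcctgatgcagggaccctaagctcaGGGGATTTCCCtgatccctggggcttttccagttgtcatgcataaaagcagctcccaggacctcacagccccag
Cxcl10: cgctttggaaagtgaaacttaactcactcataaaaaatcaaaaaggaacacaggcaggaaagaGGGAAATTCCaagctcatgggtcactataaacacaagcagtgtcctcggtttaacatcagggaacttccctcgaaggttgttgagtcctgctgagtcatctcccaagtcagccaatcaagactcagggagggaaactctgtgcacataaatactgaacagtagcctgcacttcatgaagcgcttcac
Ccl22: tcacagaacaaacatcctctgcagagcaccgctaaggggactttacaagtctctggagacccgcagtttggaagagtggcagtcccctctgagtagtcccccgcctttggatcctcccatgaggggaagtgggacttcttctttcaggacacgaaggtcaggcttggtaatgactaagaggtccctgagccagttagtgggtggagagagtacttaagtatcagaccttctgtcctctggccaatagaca
The NF-κB consensus was found in 8 of the 36 chemokine and receptor genes with a promoter in the table (22.2%) and in 3.54% of all 33465 promoters. The 8 were Cxcl1, Cxcl2, Cxcl6, Cxcl10, Cxcl11, Ccl9, Ccl20 and Ccr3, and only Cxcl1 and Cxcl2 of these were called lower. Each of the 36 genes entered with 1 promoter, while the 33465 may hold several per gene, so the shares are of unlike units. The interferon-stimulated response element (ISRE, both strands) was found upstream of Cxcl10 and Ccl19, 2 of 36, and in 3.41% of all promoters. The gamma-activated element GAS (both strands) was found for 4 of 36 (Ccl17, Ccl24, Ccr6, Cxcl11) and in 7.67% of all, and the AP-1 motif (TGANTCA, both strands) for 5 of 36 and in 6.34% of all. The direct repeat bound by liver X receptors (LXR), nuclear receptors of oxidized cholesterol, was searched on both strands by its full consensus and matched 0 of 36 and 0.00299% of all. That full LXR consensus matched only 1 of the 33465 promoters, so 0 of 36 was the outcome for almost any set of genes. Whether these genes hold an LXR element was therefore not tested. A match is only the presence of these letters.

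Among the ELR ligands, Cxcl1 and Cxcl2 were lower in mye-macrophages and Cxcl3 moved little against its spread. Cxcl1, a neutrophil attractant, read 8.67, 7.44, 10.37, 10.88 and 9.89 in control replicates 1 to 5 and 8.14, 6.99, 10.03, 10.67 and 9.32 in mye replicates 1 to 5. Every mye value was under its control partner (pair differences of -0.58 to -0.21), but the groups overlapped almost wholly. On the log2 scale it differed by -0.42 (SE 0.08, 1.34-fold lower, limma adjusted p = 0.028, 0.952 without the block). Cxcl2, which acts on the same receptor, read 9.74, 8.50, 11.04, 11.41 and 10.73 in control and 9.33, 7.57, 10.69, 11.10 and 10.12 in mye replicates 1 to 5. Its pair differences were -0.93 to -0.32, and its groups overlapped too. Its mean log2 difference was -0.53 (SE 0.10, 1.44-fold lower, limma adjusted p = 0.028, 0.936 without the block). Over the 15 alternatives the log2 difference stayed between -0.47 and -0.35 for Cxcl1 and between -0.58 and -0.43 for Cxcl2, with adjusted p from 0.000793 to 0.996 and from 0.0023 to 0.996.

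Cxcl3, a neighbour of both in function, was measured by 5 probe sets, 3 of them above the median of all values. The brightest read 9.48, 6.85, 11.61, 12.44 and 10.99 in control and 9.56, 6.74, 11.50, 12.49 and 10.63 in mye replicates 1 to 5. Its mean log2 difference of -0.09 (SE 0.08, limma adjusted p = 0.556) was lower in 3 of 5 pairs and higher in 2. The other bright probe sets differed by -0.07 and -0.12 and were also not called (limma adjusted p = 0.621 and 0.389). Cxcl6 was dim (1.60 to 2.59) and differed by 0.06 (limma adjusted p = 0.745).

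**Figure D2:**
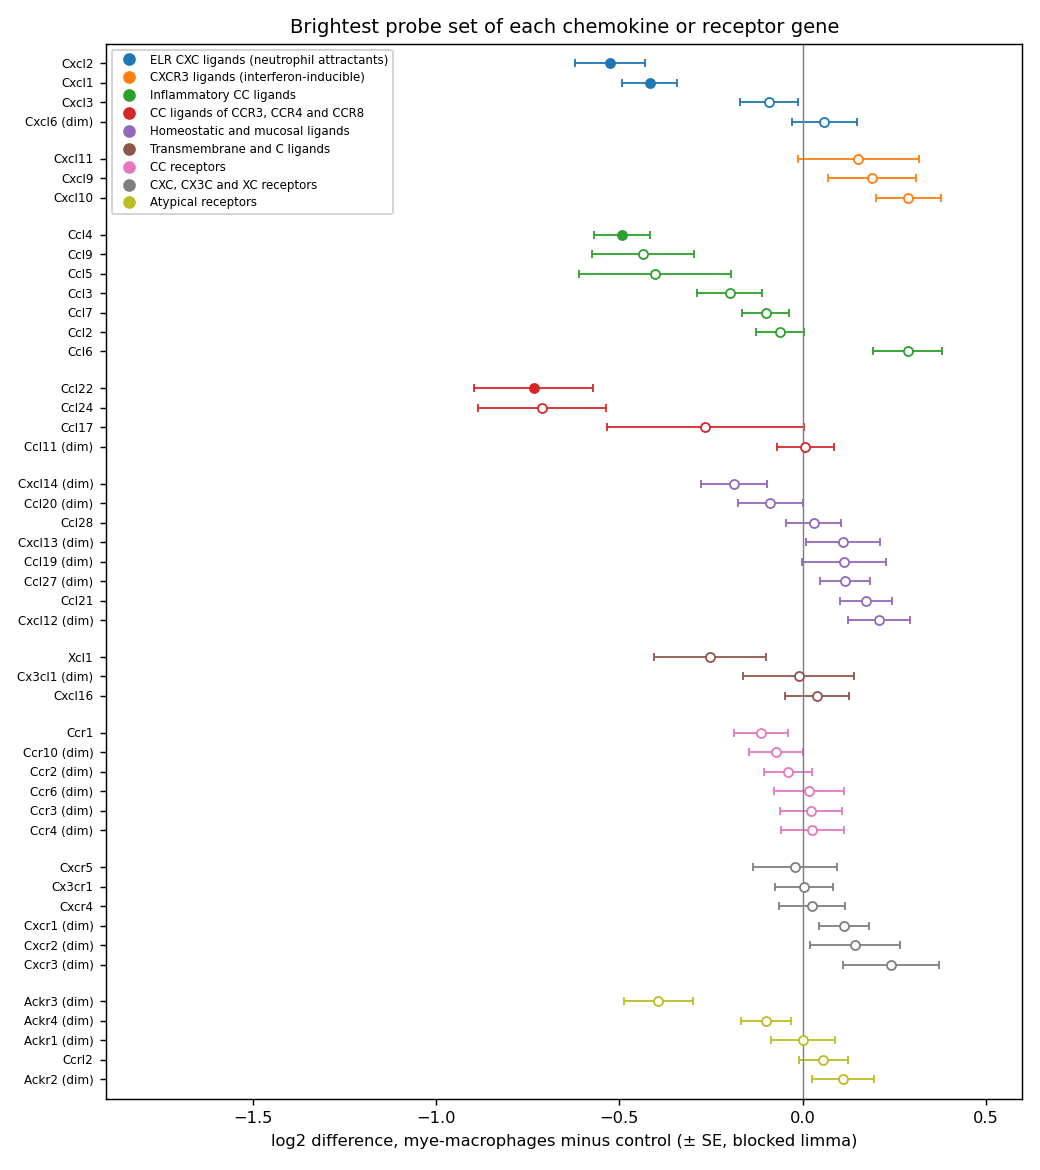
Log2 difference of mye-macrophages minus control macrophages (horizontal axis, ± SE of the blocked limma fit, n = 5 pairs) for the brightest probe set of each of the 46 genes, coloured by role, with filled points for called genes and "dim" for genes at most at the median of all values. The 4 filled points, Cxcl1, Cxcl2, Ccl4 and Ccl22, lie between -0.73 and -0.42.

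The CC ligands of CCR3 and CCR4 held the lowest log2 differences of the set. Ccl22, the CCR4 ligand that attracts T helper 2 and regulatory T cells, was measured by a pair of probe sets. The brighter read 6.48, 5.50, 7.50, 8.16 and 7.69 in control and 6.30, 5.35, 6.38, 7.07 and 6.55 in mye replicates 1 to 5. Pair differences were -1.14 to -1.08 in replicates 3, 4 and 5, and only -0.18 and -0.15 in replicates 1 and 2. The log2 difference was -0.73 (SE 0.16, 1.66-fold lower, limma adjusted p = 0.0484, 0.887 without the block), and this probe set passed in 2 of the 15 alternatives (adjusted p from 0.0246 to 0.996). The dimmer read 3.61, 2.54, 4.43, 5.42 and 4.36 in control and 2.64, 2.37, 3.61, 4.10 and 3.06 in mye replicates 1 to 5. It was lower in every pair, with a difference of -0.17 in replicate 2 and of -1.32 to -0.81 in the others. On the log2 scale it differed by -0.92 (SE 0.15, 1.89-fold lower, limma adjusted p = 0.0211, 0.807 without the block), it passed in 8 of the 15 alternatives (adjusted p from 0.00273 to 0.996), and it is the probe set that held when pair 2 or pair 3 was left out.

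Ccl24, an eosinophil attractant acting on CCR3 that alternatively activated macrophages make, read 3.77, 3.77, 4.84, 4.56 and 3.60 in control and 3.88, 3.19, 4.10, 3.66 and 2.16 in mye replicates 1 to 5. Replicate 1 alone was not lower. The log2 difference of -0.71 (SE 0.17) did not pass (limma adjusted p = 0.0647), although it did with array weights (0.038) and with a trended, robust variance prior (0.032), over a range of adjusted p from 0.032 to 0.996. Ccl17, the other CCR4 ligand, differed by -0.27 (SE 0.27, limma adjusted p = 0.619), higher in replicates 1 and 2 and lower in replicates 3, 4 and 5. The Ccl17 value was -0.52 without replicate 1, -0.03 without replicate 5 and -0.74 with the beta-actin gap, a sign of RNA quality, in the model. Ccl11 was dim (0.30 to 0.84), with a log2 difference of 0.0069 (limma adjusted p = 0.972). Dendritic cells also make Ccl17 and Ccl22. Of 5 dendritic cell markers, 4 were in the filter and 0 were called. The log2 of their summed signal was 8.57 to 9.27 in control and 8.12 to 9.34 in mye-macrophages. Signals are added before the log in such a sum, so the brightest genes weigh most. The sum was lower in 4 of 5 pairs, as was Cd83, the brightest marker. Above the median of all values lay 3 of 5 (Cd83, mean 8.54, Batf3, 5.61, and Itgae, 3.75), while Flt3 (1.39) and Clec9a (1.68) were dim. The part of dendritic cells in the Ccl22 and Ccl24 values was not tested.

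Of the inflammatory CC ligands, Ccl4 was lower and Ccl2, Ccl3, Ccl6 and Ccl7 were not called. Ccl4, an attractant of T cells and monocytes, read 10.77, 9.88, 11.08, 11.32 and 9.93 in control and 10.47, 9.21, 10.66, 10.88 and 9.29 in mye replicates 1 to 5. Each pair was lower (differences of -0.67 to -0.30), within overlapping groups. Its mean log2 difference was -0.49 (SE 0.08, 1.41-fold lower, limma adjusted p = 0.0176, 0.908 without the block), and over the 15 alternatives it was -0.54 to -0.45 with adjusted p from 0.000229 to 0.996. Ccl3, a ligand of CCR1, read 10.90, 10.30, 11.54, 12.04 and 11.17 in control and 10.83, 9.72, 11.44, 11.98 and 10.99 in mye replicates 1 to 5. Its mye values were under their partners in 5 of 5 pairs, with a difference of -0.58 in replicate 2 and of -0.18 to -0.06 in the others. The log2 difference was -0.20 (SE 0.09, limma adjusted p = 0.248).

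Ccl6, a CCR1 ligand known from the mouse, read 11.99, 10.88, 11.88, 12.38 and 12.02 in control and 12.33, 11.55, 12.13, 12.40 and 12.17 in mye replicates 1 to 5. All 5 pairs were higher in mye-macrophages, with replicate 2 moving most. The log2 difference of 0.29 (SE 0.09) did not pass (limma adjusted p = 0.135). Ccl2 and Ccl7, the monocyte attractants acting on CCR2, varied little among samples. Ccl2 spanned 12.10 to 12.52 and Ccl7 12.17 to 12.71 over the 10 arrays, where the highest value of any probe set was 13.09. Both lay outside the variance filter, with log2 differences of -0.06 (SE 0.07) and -0.10 (SE 0.06) and adjusted p of 0.763 and 0.578 in the limma fit without that filter.

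The 3 CXCR3 ligands, which IFNγ induces and which attract activated T cells and NK cells, had log2 differences above 0 and none was called. Cxcl10 read 8.91, 8.03, 8.32, 7.65 and 7.75 in control and 9.44, 8.07, 8.78, 7.98 and 7.84 in mye replicates 1 to 5. Every pair was higher in mye-macrophages, by 0.03 to 0.53. On the log2 scale it differed by 0.29 (SE 0.09, 1.22-fold, limma adjusted p = 0.119, 0.935 without the block), and it passed in 1 of the 15 alternatives, the trended, robust variance prior (0.0256, over a range of 0.0256 to 0.996). Of the 59 probe sets, 3 were higher in all 5 pairs (Cxcl10, Ccl6 and Ccl21) and 8 lower, against 6.16% and 6.59% of all probe sets.

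Cxcl9 read 8.18, 7.62, 5.53, 5.61 and 5.03 in control and 8.85, 7.74, 5.92, 5.63 and 4.78 in mye replicates 1 to 5. Replicates 1 and 2 stood above the others in both groups. Its mean log2 difference was 0.19 (SE 0.12, limma adjusted p = 0.41), and 0.13 for its other probe set. Without replicate 1 the Cxcl9 value was 0.07, and without replicate 5 it was 0.30. Cxcl11 read 8.14, 6.54, 6.99, 6.53 and 6.62 in control and 9.10, 6.52, 6.79, 6.90 and 6.26 in mye replicates 1 to 5, with replicate 1 highest in both groups. Its log2 difference of 0.15 (SE 0.16, limma adjusted p = 0.641) was -0.05 without replicate 1.

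The homeostatic and mucosal ligands, which place lymphocytes in lymphoid tissue and skin or gut, were mostly dim: 6 of 8 genes lay at or under the median of all values, and 0 of 8 were called. Ccl21, a CCR7 ligand just above that median, spanned 2.20 to 2.49 in control and 2.32 to 2.84 in mye-macrophages. It was higher in 5 of 5 pairs by 0.17 (SE 0.07), outside the variance filter (adjusted p = 0.368 in limma without it). Cxcl14 and Ccl19 were dim, with log2 differences of -0.19 and 0.11, and Ccl28 differed by 0.03. Of the transmembrane and C ligands, Cxcl16, which also serves as a scavenger receptor for oxidized lipoprotein, spanned 9.39 to 10.10, with a log2 difference of 0.04 (SE 0.09, limma adjusted p = 0.829). Xcl1, a ligand that NK cells and CD8 T cells make, differed by -0.25 (SE 0.15, limma adjusted p = 0.39), by -0.43 to -0.10 with 1 pair left out and by -0.47 with the beta-actin gap in the model. Cx3cl1 was dim, with a difference of -0.01.

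None of the 17 receptor genes was called. Of their 21 probe sets 14 lay in the filter, and the rest could not be called. A count of 0 among 14 is near the 2.69% called of all probe sets in the filter. The receptors whose brightest probe set lay above the median of all values were Ccr1, Cxcr4, Ccrl2, Cxcr5 and Cx3cr1, and the other 12 were dim. Ccr1, the receptor of Ccl3 and Ccl5 on macrophages, read 8.55, 7.76, 9.19, 9.53 and 9.14 in control and 8.23, 7.83, 9.09, 9.43 and 9.01 in mye replicates 1 to 5. Replicate 2 was lowest in both groups. The log2 difference was -0.11 (SE 0.07, limma adjusted p = 0.429). Cxcr4, the receptor of Cxcl12, was read by 3 probe sets, all above the median, with log2 differences of 0.03, 0.05 and -0.03 (SE 0.09 to 0.10). The brightest spanned 8.48 to 9.27 in control and 8.31 to 9.22 in mye-macrophages, with replicate 1 the lowest of each group, and may cross-hybridise by the suffix of its name.

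Ccrl2, an atypical receptor that binds chemerin and is induced in activated macrophages, spanned 7.80 to 8.42 in control and 7.84 to 8.49 in mye-macrophages. Its log2 difference was 0.06 (SE 0.07, limma adjusted p = 0.677), and -0.0025 after correction for the beta-actin gap described below. Cxcr5, the receptor of Cxcl13, spanned 4.89 to 5.41 with a difference of -0.02 (SE 0.11, limma adjusted p = 0.938), and its other probe set was dim. Cx3cr1, the fractalkine receptor, spanned 2.10 to 2.62 with a difference of 0.0040 outside the filter. Ccr2, the receptor of Ccl2 and Ccl7, was dim and lay between 0.65 and 0.79 on all arrays.

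Ackr3, a scavenger of Cxcl11 and Cxcl12, was dim and had the lowest log2 difference of the receptors. It read 1.42, 1.19, 1.66, 1.48 and 2.01 in control and 0.83, 1.17, 1.11, 1.21 and 1.47 in mye replicates 1 to 5. All pairs were lower, replicate 2 with a difference of only -0.02, and all values lay under the median of all probe sets. On the log2 scale it differed by -0.39 (SE 0.09, limma adjusted p = 0.0607), and it passed in 4 of the 15 alternatives (adjusted p from 0.0324 to 0.996). Of the other dim receptors, Ackr1, Ackr2, Ccr3, Ccr4, Ccr6 and Cxcr3 differed by 0.0012 to 0.24, and Cxcr3 had the lowest adjusted p among them (0.338).

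**Figure D3:**
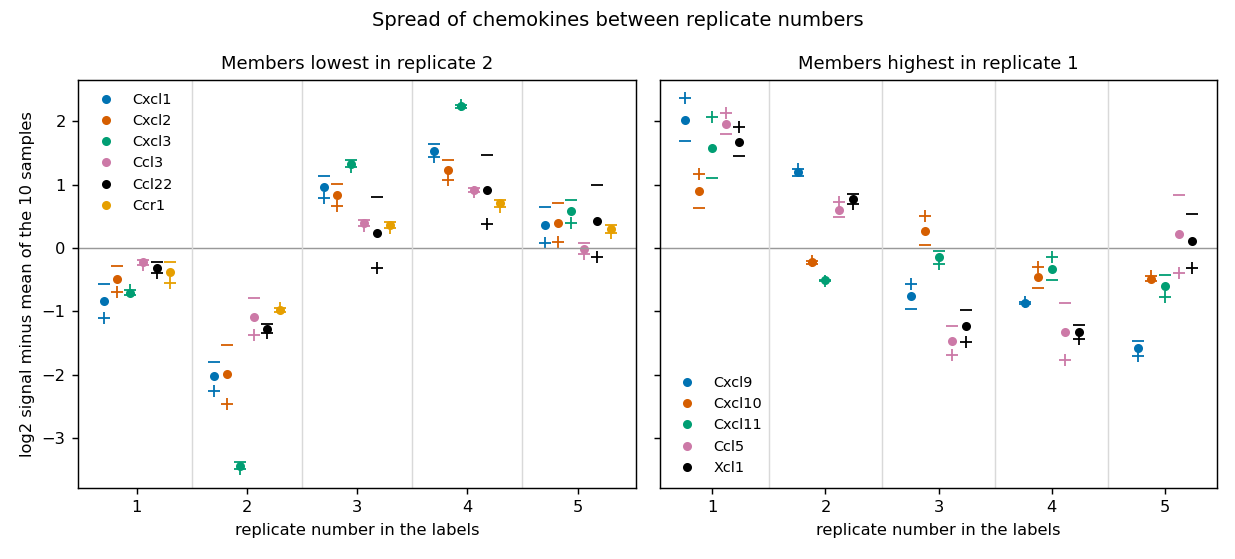
Log2 signal of each gene minus its mean over the 10 samples (vertical axis) by replicate number (horizontal axis, numbers without order), with dots for the mean of a pair, dashes for control and plus signs for mye-macrophages. The left panel holds 6 genes lowest in replicate 2 and the right panel 5 genes highest in replicate 1, and for each the dots of a gene spread more widely than its dash and plus lie apart.

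The range of the 5 pair means was larger than the mean difference with myelin for all 25 genes whose brightest probe set lay above the median of all values. A range over 5 values and a mean of 5 differences are unlike measures. The same count over all probe sets was not made, so this is no trait particular to chemokine genes. The pair means of the 25 genes ranged over a median of 1.59 log2 units, beside a median absolute myelin difference of 0.19. Replicate 4 was highest for 12 of the 25 and replicate 1 for 5, while replicate 2 was lowest for 12 and replicate 5 for 9. Cxcl3 had the widest range, 5.67 log2 units or 50.8-fold, from replicate 2 to replicate 4, and Cxcl1 ranged 11.8-fold and Cxcl2 9.30-fold between the same replicates. Cxcl9 ranged 12.2-fold, from replicate 5 to replicate 1. Ccl2 and Ccl7 ranged 1.25- and 1.32-fold.

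**Figure D4:**
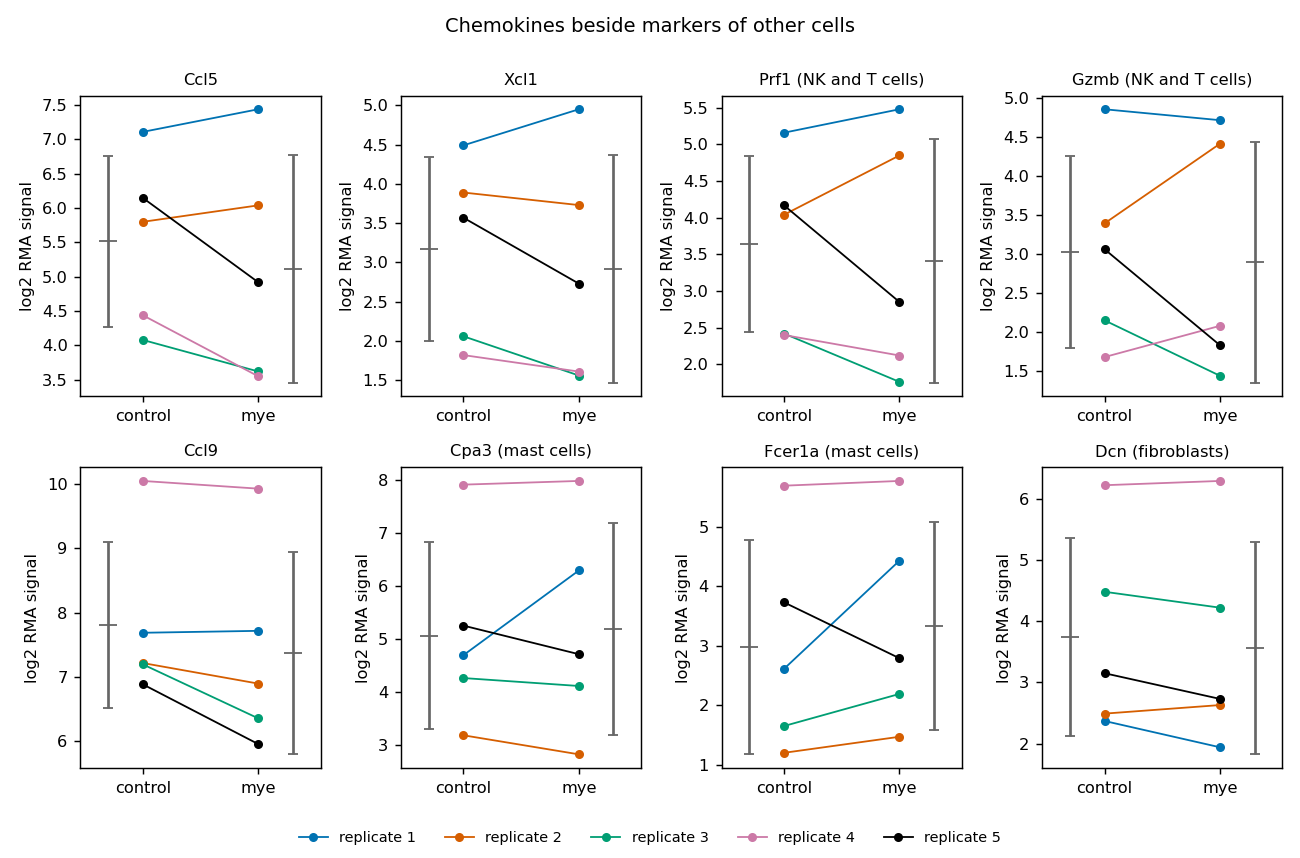
Log2 RMA signal of Ccl5, Xcl1 and Ccl9 and of 5 markers of other cells (vertical axes, each with its own range not starting at 0) in control and mye-macrophages, with 1 colour and line per replicate number and grey bars for the group mean ± SD (n = 5). Replicates 1 and 2 lie above 3 and 4 for Ccl5, Xcl1, Prf1 and Gzmb, and replicate 4 lies highest for Ccl9, Cpa3, Fcer1a and Dcn.

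Some of this spread ran beside markers of other cells, and some beside markers of macrophages. Ccl5, a chemokine of T cells and NK cells as well as macrophages, read 7.11, 5.80, 4.08, 4.44 and 6.15 in control and 7.44, 6.04, 3.62, 3.55 and 4.92 in mye replicates 1 to 5. Replicates 1 and 2 were high and 3 and 4 low, and the mean log2 difference of -0.40 (SE 0.21, limma adjusted p = 0.31) hid rises in replicates 1 and 2. Xcl1 read 4.49, 3.89, 2.06, 1.82 and 3.57 in control and 4.95, 3.73, 1.56, 1.61 and 2.73 in mye replicates 1 to 5, again highest in replicate 1 and lowest in replicates 3 and 4. The perforin gene Prf1 of cytotoxic cells read 5.16, 4.04, 2.42, 2.40 and 4.17 in control and 5.48, 4.85, 1.76, 2.12 and 2.85 in mye replicates 1 to 5. The log2 of the summed signal of the 6 NK cell markers was 4.13 to 6.32 in control and 3.77 to 6.56 in mye-macrophages. In this sum Prf1 and Gzmb, the brightest, weigh most. Of the 6, 2 lay above the median of all values, and the defining marker Ncr1 averaged 1.06. For the 9 T cell markers the log2 of the summed signal was 6.42 to 6.85 in control and 6.38 to 7.00 in mye-macrophages. Of the 9, 4 lay above the median of all values (among them Lck, mean 5.78, Cd2, 3.59, and Cd3g, 3.16), and Cd3e spanned 1.83 to 2.83. Unlike Ccl5, Cd2 was highest in replicate 4 (4.04 in control and 4.36 in mye-macrophages). None of either list was called, and their part in Ccl5, Xcl1 and the CXCR3 ligands was not tested.

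Ccl9, a CCR1 ligand known from the mouse, read 7.69, 7.22, 7.20, 10.05 and 6.89 in control and 7.72, 6.90, 6.36, 9.93 and 5.96 in mye replicates 1 to 5. Replicate 4 stood above all others in both groups, and the log2 difference of -0.44 (SE 0.14) did not pass (limma adjusted p = 0.129). For the 10 mast cell and eosinophil markers the log2 of the summed signal was 4.98 to 8.47 in control and 5.11 to 8.56 in mye-macrophages. This sum was highest in replicate 4, where Cpa3, the brightest of them, read 7.92 and 7.99. The eosinophil markers Prg2, Epx and Il5ra were dim (means of 0.97, 1.11 and 0.66) and weigh little in it. In the same replicate the fibroblast marker Dcn read 6.22 and 6.29, while the collagen gene Col1a1 averaged 1.47 over all samples. The macrophage markers Mrc1 (4.41 and 5.42) and Cd14 (11.72 and 11.61) were also highest in replicate 4, while Lyz2 was lowest there (12.04 and 11.93). Of the 10 mast cell and eosinophil and the 6 fibroblast markers 3 and 1 lay above the median of all values, none was called, and their part in the spread of Ccl9 was not tested. The markers of B cells (4), neutrophils (4) and mesothelial cells (6) held 0 calls as well, and 0 of 4, 0 of 4 and 2 of 6 lay above the median.

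RNA quality was read from the beta-actin control probe sets as the log2 gap between their 3′ and 5′ ends. It was 3.30 ± 0.32 (SD, n = 5) in mye-macrophages and 3.02 ± 0.30 (SD, n = 5) in control macrophages, higher in mye-macrophages in 4 of 5 pairs (two-sided exact permutation test p = 0.19, exact sign flips of the pairs p = 0.188 where 0.0625 is the smallest possible). Over the 10 arrays the gap lay between 2.66 and 3.71, so the 3′ end read higher on each of them. How far the level of this gap limits the other probe sets was not tested. With this gap as a covariate, 0 chemokine probe sets were called by limma, against 6 higher and 10 lower of all probe sets. The log2 differences of the called probe sets were then -0.35 for Cxcl1, -0.46 for Cxcl2, -0.50 for Ccl4 and -1.02 and -0.98 for Ccl22.

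**Figure D5:**
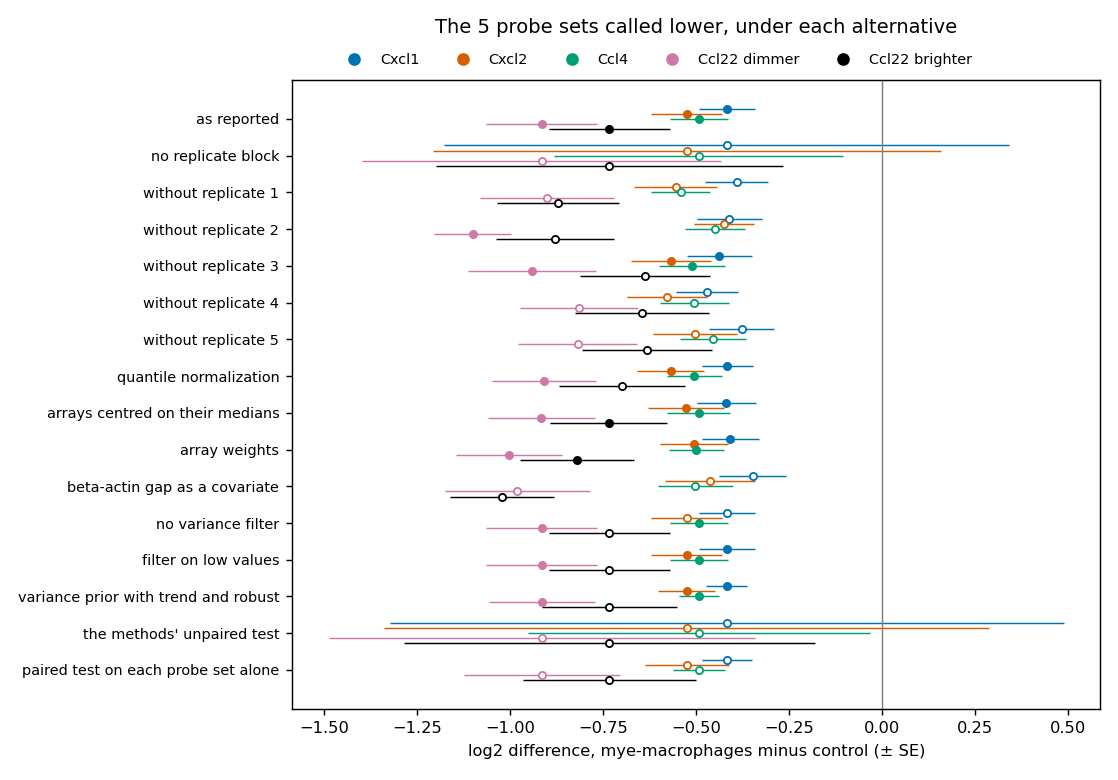
Log2 difference of mye-macrophages minus control macrophages (horizontal axis, ± SE) of the 5 called probe sets as reported and under 15 alternatives (rows), with filled points where the adjusted p is under 0.05. Every point lies under 0, and all 5 are open without the block, with the beta-actin gap, in the methods' unpaired test, in the paired test of each probe set alone and without replicate 1, 4 or 5. Rows that change only the block, filter, variance prior or test keep the log2 difference by construction.

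Genes that act around chemokines were read as lists. With 1 probe set per gene, the median log2 difference over all 14217 genes was 0.0055, and 1.58% of the genes in the filter were called lower and 1.12% higher. Of 36 genes of chemokine receptor signaling (such as G protein subunits, arrestins and kinases) 0 were called, with a median of 0.01, and of 24 genes of the responses to IL-1 and IFNγ that induce chemokines, NF-κB subunits among them, 0 were called, with a median of -0.02. In the latter list the inhibitor Nfkbia differed by -0.21 (SE 0.09, limma adjusted p = 0.213) and Irf1 by -0.0083. The 8 mediators of chemokine mRNA decay held 0 calls and a median of -0.20, with 6 of 8 differences below 0. The summed signal of the inducer, processing and decay lists, in which the brightest genes weigh most, was lower in mye-macrophages in 5 of 5 pairs.

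Of 8 enzymes that cut or shed chemokines, 1 was called lower (median -0.10). This was Mmp9, a gelatinase that trims ELR ligands, which read 7.40, 6.21, 9.11, 9.85 and 8.23 in control and 7.16, 5.77, 8.70, 9.66 and 7.69 in mye replicates 1 to 5. It was lower in 5 of 5 pairs, with replicate 2 lowest and replicate 4 highest, as for Cxcl1. Its mean log2 difference was -0.36 (SE 0.07, limma adjusted p = 0.0398, 0.958 without the block), and it passed in 0 of the 5 fits that left out a pair. Mmp12, the macrophage elastase, differed by -0.35 (SE 0.09, limma adjusted p = 0.0747).

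Of 7 other chemoattractant receptors, 3 were called lower (median -0.02), each in 5 of 5 pairs, and each in only 1 of the 5 fits that left out a pair. C5ar1, the receptor of complement C5a, read 8.74, 9.02, 9.14, 8.93 and 9.59 in control and 8.38, 8.55, 8.72, 8.73 and 8.98 in mye replicates 1 to 5, a log2 difference of -0.41 (SE 0.08, limma adjusted p = 0.0283, 0.629 without the block). C3ar1, the receptor of C3a, differed by -0.77 (SE 0.17, limma adjusted p = 0.0461). S1pr1, which guides cells along sphingosine 1-phosphate, differed by -0.52 (SE 0.11, limma adjusted p = 0.0443). The platelet CXC ligand Pf4, which the symbol rule leaves out, read 9.84, 8.39, 11.15, 11.78 and 10.91 in control and 10.56, 8.59, 11.41, 11.96 and 11.07 in mye replicates 1 to 5. It was higher in 5 of 5 pairs, with a log2 difference of 0.30 (SE 0.09, limma adjusted p = 0.115), and the other such ligand, Ppbp, was dim with a difference of 0.15. Of 10 macrophage markers, 1 was called higher, the mannose receptor Mrc1 (0.71, SE 0.12, limma adjusted p = 0.0265, 0.935 without the block), which passed in 1 of the 5 fits that left out a pair.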

How the data were processed

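Total RNA of the 10 samples was hybridized to Affymetrix rat genome arrays. The deposited values are log2 signals per probe set, which the authors made from the raw arrays by RMA in the affy package. RMA subtracts background, equalizes the distributions of the arrays and summarizes the probes of a set. All 10 columns were used, and the 57 control probe sets of the manufacturer did not enter the fits. Precision is limited by the number of arrays.

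The groups were compared in limma 3.58.1 (R 4.3.3; lmFit and eBayes on 31042 probe sets) with the replicate number as a block. Benjamini-Hochberg adjustment covered the upper 50% of probe sets by interquartile range, a filter of the size named in the methods. The pairing comes from the numbers in the labels, whose meaning is not stated. Every same-numbered pair correlated over the threshold of 0.1, and all 10 samples correlated best with their own number. The methods name an unpaired test and no adjustment. That test is given as an alternative, with the Benjamini-Hochberg adjustment added. Exact tests used Python 3.11.15 with SciPy 1.17.1, and the fit was tested on simulated data.

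Named genes were the called ones, up to 4 genes per role with the highest mean, the markers Ccl22, Ccl24, Cxcl1 and Cxcl10, any gene whose groups do not overlap (0 were found), the 5 probe sets with the lowest p and, of each other list, up to 4 genes past the threshold or with the highest mean. Ccl5, Ccl9, Ccr2, Flt3, Gata6, Ncr1, Prg2, Epx and Il5ra fall outside this rule and were chosen with their values in view. Ccl20 is named only for its motif match. The members and lists were chosen with earlier results of these data known. The brightest probe set stands for a gene. Alternatives covered the block, each pair left out, scaling, array weights, the beta-actin gap, the filter, the variance prior and other tests. Promoters are those of RefSeq (GRCr8), found for 36 of 46 genes and searched over the 250 bases before the start.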

Additional observations from a re-analysis of the deposited data

Results flagged for a closer look

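A sample lay far from the other 4 of its group, by Dixon's test, in 4 of the 72 groups examined (36 probe sets in each group), and chance gives about 1 in 20. Cxcl11 read 8.14 in control replicate 1 against 6.53 to 6.99 in the other control samples, and 9.10 in mye replicate 1 against 6.26 to 6.90. The same replicate number thus stood high in both groups. The brightest Cxcr4 probe set read 8.31 in mye replicate 1, where the other mye samples lay between 8.99 and 9.22. The dim receptor gene Ccr4 read 1.72 in control replicate 2, where the others lay between 1.38 and 1.47.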

How the results depend on the processing

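Of 540 values of 36 named probe sets under 15 alternatives, 451 kept direction and side of the threshold, 46 no longer passed, 7 newly passed and 36 changed sign, over 15 probe sets. Alternatives that change only the block, the filter, the variance prior or the test leave the log2 difference as it was, for any probe set. The 5 called probe sets kept their sign under every alternative. Leaving out 1 pair could not change it, since every pair was lower. Only scaling, array weights and the beta-actin gap could have done so. The replicate numbers pair the samples, and without the replicate block 0 member probe sets were lower, and 0 higher and 0 lower of all. The methods' unpaired test and a paired test without shared variance, both judged by adjusted p, gave 0 lower members and 0 of all in either direction. With the beta-actin gap added to the model 0 members were lower (6 higher and 10 lower of all), without the variance filter 2 (39 and 89 of all). The trended, robust variance prior gave 1 member higher (Cxcl10), with 387 higher and 654 lower of all. Leaving out 1 pair gave 0 to 4 members lower, 0 higher, and 11 to 141 higher and 20 to 531 lower of all, the last without replicate 3. Over only the members above the median of all values the median log2 difference was -0.0741. The cause of these shifts was not tested, except that fewer pairs or more adjusted probe sets enter by construction.

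Sign changes concerned small differences. With that gap in the model Ackr1 was at -0.1165, Ccrl2 at -0.0025, Ccr3 at -0.0757, Ccr6 at -0.0859, Cx3cr1 at -0.0264, Cxcl11 at -0.0655, Ccl19 at -0.0795 and Cxcl16 at -0.0789. With quantile normalization Ackr1 was at -0.0151, Cx3cr1 at -0.0013 and Cxcr5 at 0.0142. With array weights Ackr1 was at -0.0380 and Ccr6 at -0.0246. With 1 pair left out, the log2 difference lay between -0.0574 and 0.0653 for Ackr1, -0.0351 and 0.0504 for Ccl11, -0.0113 and 0.1085 for Ccr3, -0.0089 and 0.1185 for Ccr4, -0.0720 and 0.0836 for Ccr6, -0.0618 and 0.0440 for Cx3cr1, -0.0727 and 0.0737 for Cxcr4, and -0.1100 and 0.0933 for Cxcr5. It lay between -0.0497 and 0.2792 for Cxcl11, -0.0272 and 0.1230 for Cxcl6, -0.0280 and 0.0696 for Ccl28, -0.1683 and 0.1633 for Cx3cl1, and -0.0347 and 0.0984 for Cxcl16. The signal limits the 28 probe sets at or under the median of all values, whose distance from background was not measured.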
